A study of Mus musculus with 17 samples.

Results

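Inflammatory cytokines and mediators were followed in bone marrow macrophages (BMMs) and in the pre-osteoclasts (preOCs) that RANKL makes of them. The 9 genes described were chosen by symbol: Tnf, Il1b, Il18, Il1rn, Il10, Il6, Tgfb1, Ptgs2 and Nos2. All 9 were among the 41388 gene identifiers of the count tables, each with 1 Ensembl identifier. RNA was sequenced from 17 cultures of 4 groups. Bap1flox mice carry loxP sites at both Bap1 alleles and no Cre, and Bap1LysM mice carry the same floxed alleles and, by the study's methods, 1 allele of LysM-Cre, a Cre inserted in the lysozyme gene Lyz2 that acts in macrophages, granulocytes and their precursors. Mice for the preOC RNA were males of 20 weeks. BMMs were kept in M-CSF (3 Bap1flox and 3 Bap1LysM libraries), and preOCs, labelled OC, received M-CSF with RANKL at 100 ng/ml for 24 hours (6 Bap1flox and 5 Bap1LysM libraries). Libraries numbered 1 to 3 and 4 to 6 form 2 library sets, and all BMM libraries belong to the first.

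These genes act on bone from both sides. TNF and the interleukin-1 cytokines add to RANKL signalling through NF-kappa B and drive the formation of osteoclasts in inflamed joints and gums, whereas the IL-1 receptor antagonist encoded by Il1rn occupies the IL-1 receptor without signalling. IL-18 and IL-10 restrain osteoclast formation in culture, TGF-beta 1 is stored in bone matrix and released during resorption, and Ptgs2 (COX-2) and Nos2 (inducible nitric oxide synthase) make small mediators. BAP1 is a deubiquitinase that takes ubiquitin off histone H2A, a mark of silenced genes.

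Libraries held 37967542 to 61369441 counted reads. The share of reads on mitochondrial genes was 0.481% to 1.074% in the first library set and 2.364% to 5.264% in the second. Among preOCs it was higher in the Bap1LysM library of all 5 same-numbered pairs, and its part in the results was not tested. The osteoclast marker list (10 genes, among them Acp5 and Ctsk) summed to 240 to 385 CPM (read counts per unit of library size, here scaled by TMM factors over all libraries) in BMMs and to 6093 to 15870 CPM in preOCs, and macrophage markers were present throughout. Both preOC libraries numbered 1 were lowest in the osteoclast list (6600 and 6093 CPM, the others 10627 or higher). Bap1 itself ranged from 58.2 to 88.2 CPM in every library and did not pass the test in preOCs by edgeR (log2 fold change -0.22 ± 0.10 SE, adjusted p = 0.18), while limma's voom with quality weights called it lower (-0.31 ± 0.07, adjusted p = 0.0037). Counts over the whole gene include exons outside the floxed part, so they do not check the deletion. Lyz2, in which the Cre sits, stood at 0.143% to 0.479% of the Bap1flox mean in 6 of the 8 Bap1LysM libraries and at 45.4% and 80.1% in the BMM and preOC libraries labelled Bap1LysM 1. A mouse with 1 Cre allele keeps 1 intact Lyz2 allele, so the level near 0 in those 6 libraries goes against the stated genotype. Whether the libraries labelled Bap1LysM 1 (45.4% and 80.1%) have the stated genotype cannot be told from these counts. The libraries numbered 1 stand apart from the other Bap1LysM libraries, and results that rest on them are given with and without them.

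By level per length, which allows genes to be compared, Tgfb1 led in every group, at 247 ± 23.0 CPM per kb (SD, n = 3) in Bap1flox BMMs and 170 ± 17.4 (n = 6) in Bap1flox preOCs. In Bap1flox BMMs it was followed by Il18 (9.12 ± 0.675), Tnf (6.37 ± 1.37), Il1rn (3.40 ± 1.46) and Il10 (2.46 ± 0.259), of which Il1rn and Il10 overlapped within their SD. Ptgs2 (0.212), Il1b (0.163), Il6 (0.0274) and Nos2 (0.00638) lay at the bottom. In Bap1flox preOCs, Il1rn rose to the second place at 36.6 ± 3.33 CPM per kb, Tnf (5.19 ± 2.65) and Il18 (4.41 ± 1.07) overlapped in the third, and the other members were below 1.

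RefSeq promoter windows on GRCm38.p6 were matched for 7 of the 9 members (Il1rn has 3 of the 9 windows). The 250 bases before the start are shown for the 4 members on which the comparisons turn, the gene strand read 5′ to 3′. Capitals mark matches on either strand to a loose kappa B motif (GGG and CC with any 5 bases between them), to TGANTCA (AP-1) or to TTNNGNAA (C/EBP), and overlapping matches run together.

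Tnf, chr17:35202008-35202257, minus strand: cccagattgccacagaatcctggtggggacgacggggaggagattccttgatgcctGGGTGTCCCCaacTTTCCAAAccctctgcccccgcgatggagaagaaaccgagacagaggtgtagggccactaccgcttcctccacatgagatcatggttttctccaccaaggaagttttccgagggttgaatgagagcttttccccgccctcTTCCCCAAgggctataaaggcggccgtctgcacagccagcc
Il1b, chr2:129371140-129371389, minus strand: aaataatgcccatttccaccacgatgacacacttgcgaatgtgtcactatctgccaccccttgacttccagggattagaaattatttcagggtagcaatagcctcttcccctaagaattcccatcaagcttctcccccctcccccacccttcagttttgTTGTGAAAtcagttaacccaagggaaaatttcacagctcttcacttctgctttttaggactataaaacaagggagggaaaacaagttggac
Il18, chr9:50554450-50554699, plus strand: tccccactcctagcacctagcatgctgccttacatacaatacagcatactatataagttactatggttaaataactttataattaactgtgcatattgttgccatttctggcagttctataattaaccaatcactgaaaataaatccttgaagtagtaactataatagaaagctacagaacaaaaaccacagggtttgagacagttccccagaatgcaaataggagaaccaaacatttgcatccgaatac
Il1rn, upstream start, chr2:24336610-24336859, plus strand: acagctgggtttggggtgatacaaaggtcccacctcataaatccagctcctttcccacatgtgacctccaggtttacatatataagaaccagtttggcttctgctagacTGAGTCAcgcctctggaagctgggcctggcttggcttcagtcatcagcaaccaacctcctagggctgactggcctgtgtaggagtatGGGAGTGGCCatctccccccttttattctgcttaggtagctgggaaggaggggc
Il1rn, downstream start, chr2:24345121-24345370, plus strand: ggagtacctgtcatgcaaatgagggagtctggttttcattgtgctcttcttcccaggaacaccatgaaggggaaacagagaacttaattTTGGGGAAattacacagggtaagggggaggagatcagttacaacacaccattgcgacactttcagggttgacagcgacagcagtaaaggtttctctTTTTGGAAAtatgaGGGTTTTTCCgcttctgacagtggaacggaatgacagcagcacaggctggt

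Of 32851 windows of this length, 45.8% held the kappa B letters, 6.75% the AP-1 letters and 36.8% the C/EBP letters. The Il1rn windows differed from each other: the upstream one held an AP-1 match 141 bases and a kappa B match 54 bases before the start, and the downstream one held a kappa B match at 51 bases and C/EBP matches at 161, 65 and 64 bases. The Tnf window held 1 kappa B and 2 C/EBP matches, the Il1b window 1 C/EBP match, and the Il18 window held none of the 3 motifs. These matches describe letters only, and the RNA counts do not say which start was used. The Il18 window is of a RefSeq start upstream of the counted model, which runs from 50575273 to 50581837 on chromosome 9 and has 714 bases of exon.

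Tnf, the gene of the cytokine TNF on chromosome 17 (35199381 to 35202007, minus strand, 4 exon blocks), was higher in Bap1LysM than in Bap1flox BMMs. Its level was 9.84, 12.9 and 8.56 CPM in the 3 Bap1flox BMM libraries and 21.7, 19.6 and 22.9 CPM in the 3 Bap1LysM ones. The groups did not overlap, and the level rose 2.04-fold (log2 fold change 1.03 ± 0.17 SE, edgeR quasi-likelihood test, adjusted p = 0.027). Leaving out any 1 of the 6 libraries kept the difference at 0.91 to 1.21 but took its adjusted p to between 0.051 and 0.11.

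Il18, whose product induces interferon-gamma in lymphocytes, was the other member called in BMMs. The 3 Bap1flox libraries held 6.91, 6.65 and 5.98 CPM and the 3 Bap1LysM libraries 4.34, 3.15 and 3.37 CPM. No library of either genotype reached the range of the other. The level fell by 0.85 ± 0.18 SE on the log2 scale (adjusted p = 0.045), and 1 of the 6 fits without a library, the one without Bap1LysM BMM 1, kept the call (log2 range -1.0 to -0.76, adjusted p 0.046 to 0.15).

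Markers of other cells differed between these BMMs as well. Of 8 T and NK cell markers only Cd4 had enough reads to be tested, and it made up most of their sum (9.04 to 11.9 CPM in Bap1flox, 1.02 to 3.26 CPM in Bap1LysM). Cd4 stood at 8.95 to 11.5 CPM and 0.621 to 3.01 CPM, and was not called (-2.30 ± 0.52, adjusted p = 0.053). The sum of 4 monocyte markers was 600.0 to 787 CPM and 263 to 581 CPM, with no gene called. Their median log2 fold change was 0.34, beside -0.01 for all genes tested, so the sum and the median went opposite ways. Of the 4 tested B and plasma cell markers, Igkc (2.82 ± 0.58) and Jchain (3.07 ± 0.45, past the filter only through the Bap1LysM libraries) were called higher and Cd79b (-1.05 ± 0.20) lower, while the sums overlapped (98.7 to 125 and 65.4 to 131 CPM). The part of these cells in the Tnf and Il18 levels of BMMs was not tested.

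Of the 9 members, 6 passed the filter on low counts in BMMs (CPM above 1 in at least 2 libraries), 1 rose and 1 fell. Over all genes tested in this comparison, 5.32% were called (693 genes, and 4 to 756 with 1 library left out). A lack of overlap between 3 and 3 libraries is common here, since 33.9% of all genes tested showed it. The others that were tested did not pass: Il1rn stood at 5.83, 11.7 and 15.1 CPM in Bap1flox and 6.84, 5.01 and 8.84 CPM in Bap1LysM libraries (log2 fold change -0.67 ± 0.37, adjusted p = 0.29). Il10 (0.22 ± 0.18), Tgfb1 (0.04 ± 0.10) and Ptgs2 (0.41 ± 0.37) had differences within 1 or 2 standard errors.

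**Figure D1:**
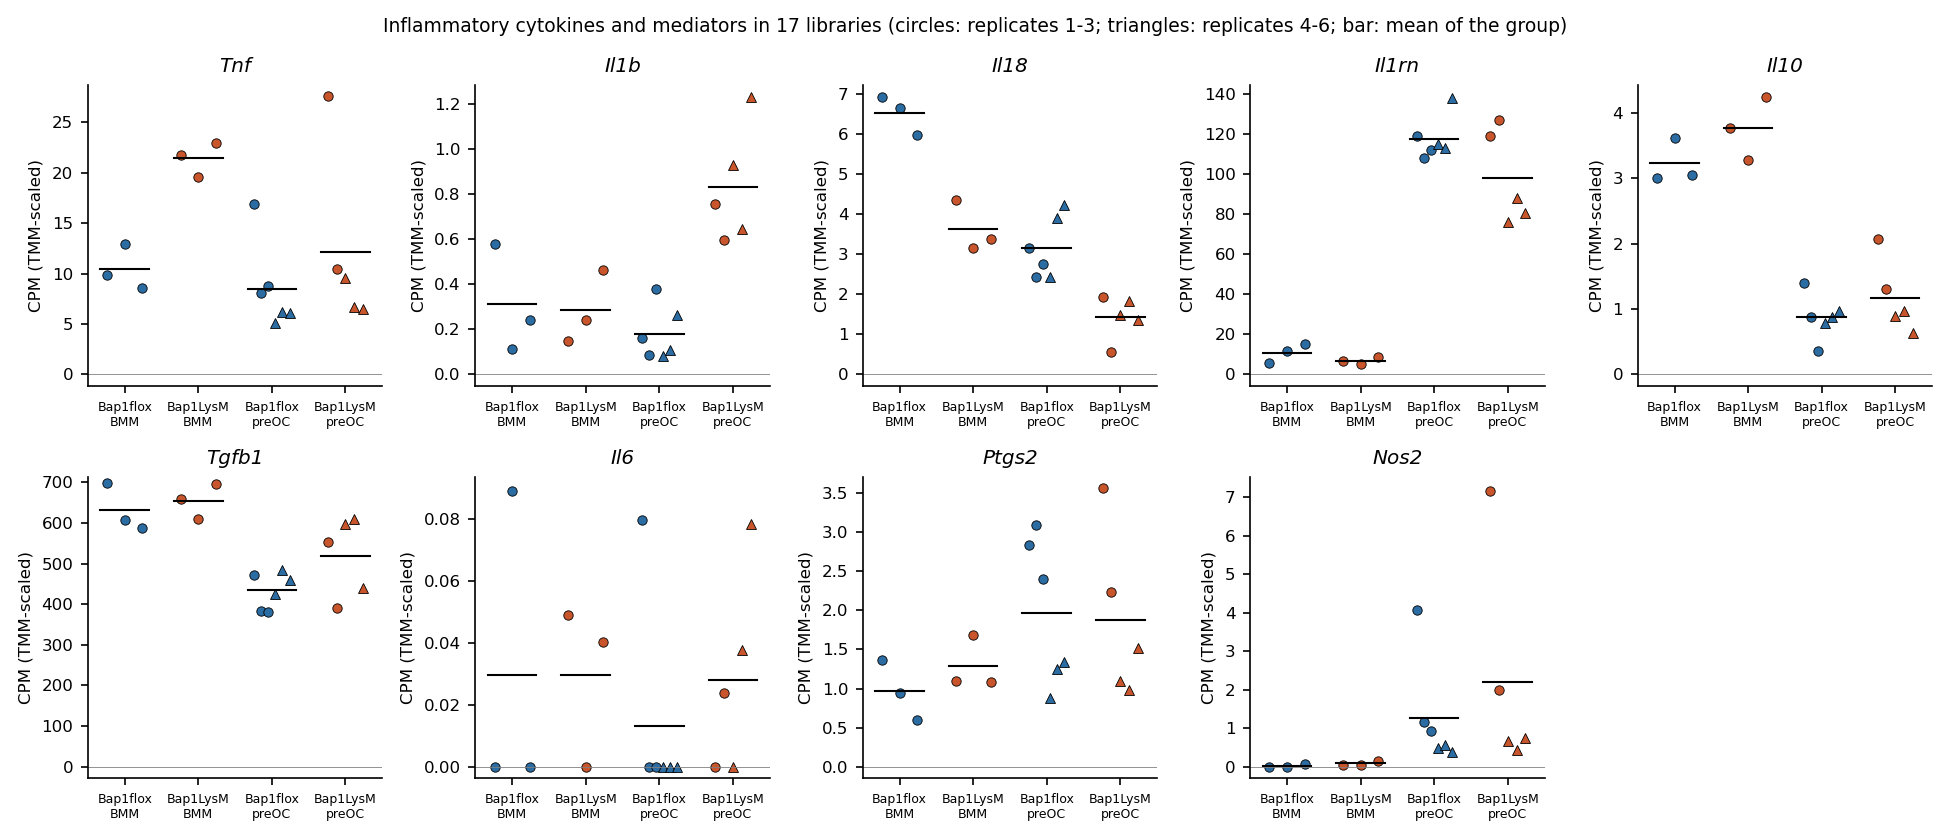
Levels of the 9 members in TMM-scaled CPM (vertical axes, 1 scale per gene, linear) in the 4 groups; each point is a library, circles are replicates 1 to 3, triangles replicates 4 to 6, and bars are group means. Il18 lies lower in Bap1LysM in BMMs and in preOCs, Il1b lies higher in Bap1LysM preOCs (0.595 to 1.23 CPM against 0.0813 to 0.378), and the highest points of Tnf and Nos2 among preOCs are the libraries numbered 1.

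In preOCs the genotypes were separated by 2 members of the interleukin-1 family, in opposite directions. Il18 was lower in all 5 Bap1LysM preOC libraries (1.93, 0.571, 1.47, 1.84 and 1.36 CPM) than in the 6 Bap1flox ones (lowest 2.42, median 2.95, highest 4.22 CPM), with no overlap. The level fell by 1.14 ± 0.28 SE on the log2 scale (adjusted p = 0.019), which is 2.2-fold. The call was kept in 10 of 11 fits that left out a library and lost without Bap1LysM preOC 4 (adjusted p = 0.052). The difference was -1.14 ± 0.51 in replicates 1 to 3 alone (adjusted p = 0.32) and -1.17 ± 0.25 in replicates 4 to 6 alone (adjusted p = 0.0079).

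Il1b, which encodes the precursor of IL-1 beta, went the other way at a low level. The Bap1flox preOC libraries held 5 to 20 reads each (lowest 0.0813, median 0.135, highest 0.378 CPM), and the 5 Bap1LysM libraries held 38, 25, 55, 34 and 47 reads (0.755, 0.595, 0.928, 0.644 and 1.23 CPM). The lowest Bap1LysM library stood above the highest Bap1flox library. Il1b did not reach the main filter, and with genes kept at CPM above 0.1 it rose 4.54-fold (log2 fold change 2.18 ± 0.42, adjusted p = 0.0063), in each of 11 fits without a library (2.01 to 2.55, adjusted p 0.0037 to 0.021), fits that were added after its values were seen. Within the sets the difference was 1.69 ± 0.64 in replicates 1 to 3 (adjusted p = 0.34) and 2.62 ± 0.49 in replicates 4 to 6 (adjusted p = 0.0038). In BMMs, Il1b was at 0.579, 0.112 and 0.241 CPM in Bap1flox and 0.147, 0.244 and 0.462 CPM in Bap1LysM libraries, with overlapping groups and too few reads for the filter. An antisense gene, Il1bos, overlaps Il1b on the other strand, and whether counting used strand is not given in the sources used here. Il1bos itself held at most 2 reads in any library.

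Markers of the labelled cells and of other cells moved with genotype in these preOCs. Among 8 macrophage markers, Csf1r (0.41 ± 0.10, adjusted p = 0.022) and Mertk (1.26 ± 0.30, adjusted p = 0.016) were called higher by edgeR and none lower. Among 10 osteoclast markers, Dcstamp was called lower (-0.69 ± 0.17, adjusted p = 0.021) and none higher. The groups overlapped for each of these genes. Of 11 neutrophil markers 10 were tested, 7 were higher in Bap1LysM and none was at 0 in a whole group. Their summed level was 94.1 to 254 CPM in Bap1flox preOCs, 198 and 185 CPM in Bap1LysM preOCs 1 and 2, and 494 to 645 CPM in Bap1LysM preOCs 4 to 6. Ly6g, which defines mature neutrophils, reached at most 0.304 CPM in preOCs. Monocyte markers (2 of 4 higher) summed to 15.2 to 49.6 CPM against 19.9 to 169 CPM, and B and plasma cell markers (3 of 4 tested higher, 8 listed; Jchain passed the filter only through Bap1LysM libraries) to 9.35 to 21.6 CPM against 33.3 to 82.0 CPM. Mast cell and basophil markers (the 1 tested of 7 higher, Kit) summed to a median of 1.4 CPM against 5.22 CPM (2.98 to 5.47, above all Bap1flox preOCs), and dendritic cell markers (6 listed; Zbtb46 was called higher, and Ccr7 passed the filter only through Bap1LysM libraries) to 2.94 to 5.0 CPM against 5.35 to 11.3 CPM, so that these sums and the B and plasma cell sum separated the genotypes in all libraries. The part of these cells in the Il1b and Il18 levels was not tested. In bulk RNA, fewer cells of a type and less RNA per cell cannot be told apart.

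**Figure D2:**
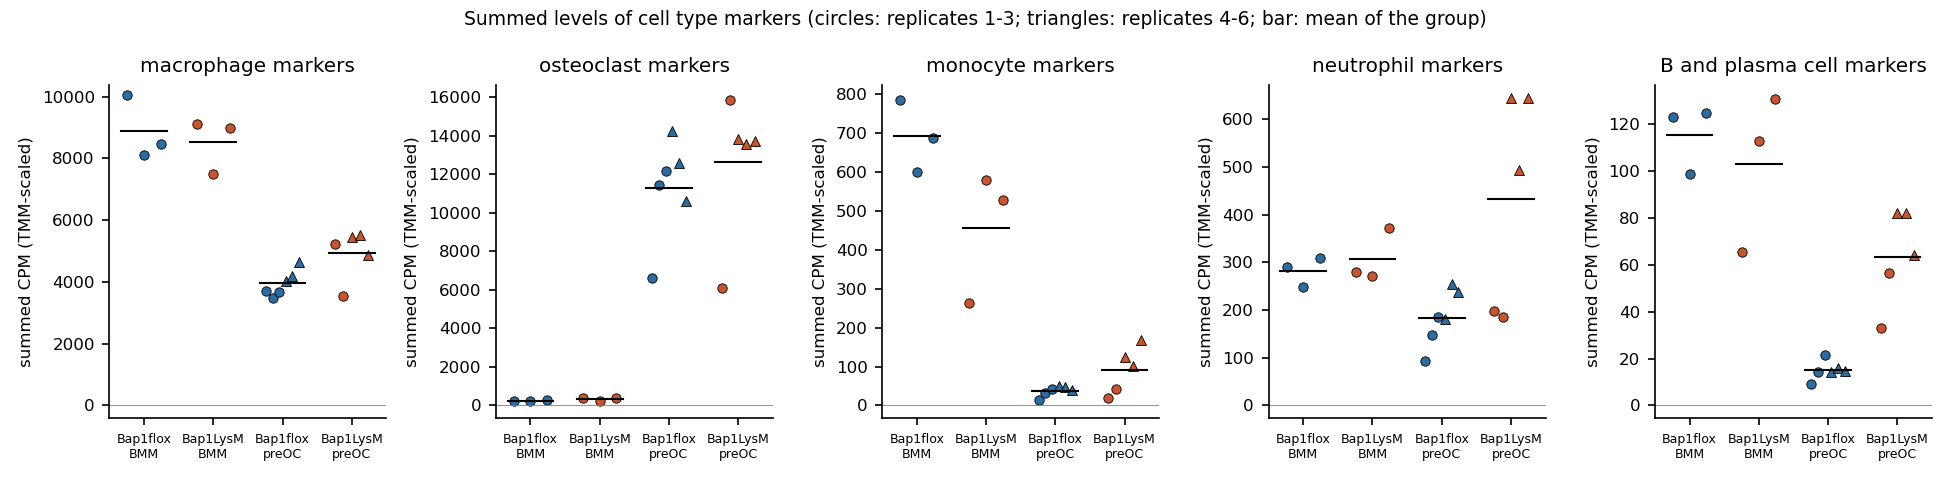
Summed TMM-scaled CPM (vertical axes, linear) of markers of 5 cell types in the 4 groups; each point is a library, circles are replicates 1 to 3, triangles replicates 4 to 6, and bars are group means. Among preOCs, neutrophil and monocyte sums are highest in Bap1LysM preOCs 4 to 6 (494 to 645 and 101 to 169 CPM), B and plasma cell sums lie higher in all 5 Bap1LysM preOC libraries, and the osteoclast sum is lowest in the libraries numbered 1.

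Il1rn, the receptor antagonist, was not called over both library sets and was called in the second set alone. The Bap1flox preOC libraries held 108 to 138 CPM (median 114). Bap1LysM preOCs 1 and 2 stood at 119 and 127 CPM, inside that range, and Bap1LysM preOCs 4, 5 and 6 at 76.1, 87.8 and 80.6 CPM, below all Bap1flox libraries. Over both sets the difference was -0.26 ± 0.15 (adjusted p = 0.27). In replicates 4 to 6 alone it was -0.58 (adjusted p = 0.0026) and in replicates 1 to 3 alone 0.12 (adjusted p = 0.50). The test of whether the genotype difference itself changed with the set gave -0.70 ± 0.14, unadjusted p = 0.00045 and adjusted p = 0.24, and so was not called among all genes.

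Tnf in preOCs was highest, in both genotypes, in the library numbered 1. Bap1flox preOCs held 5.09 to 16.9 CPM (median 7.09) and the Bap1LysM preOCs 27.6, 10.4, 9.59, 6.69 and 6.52 CPM. The groups overlapped, while each Bap1LysM library stood above the Bap1flox library of its number (5 of 5). Without pairing, the difference was 0.51 ± 0.43 (adjusted p = 0.45). When libraries were blocked by number it was 0.45 (adjusted p = 0.046), a fit in which 32.8% of all genes tested were called, and with genes kept at CPM above 0.1 the blocked fit did not call it (0.44, adjusted p = 0.054). Without Bap1LysM preOC 1, the library at 27.6 CPM, it was -0.05 (adjusted p = 0.93) in a fit that kept Bap1flox preOC 1, the library at 16.9 CPM. With the library set as a term and the same library left out it was 0.24 ± 0.22 (adjusted p = 0.42).

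The remaining members were not called by edgeR in preOCs. Tgfb1 stood at 382 to 484 CPM (median 442) in Bap1flox and at 554, 391, 597, 611 and 440 CPM in Bap1LysM libraries (0.25 ± 0.12, adjusted p = 0.19). limma's voom with quality weights, the test the study names, called Tgfb1 (log2 fold change 0.39, adjusted p = 0.0047) and Il1rn (-0.48, adjusted p = 0.0011) besides Il18, in a fit that called 54.9% of all genes tested, and the edgeR test did not. Ptgs2, the inducible cyclo-oxygenase, was at 0.878 to 3.09 CPM in Bap1flox and 3.56, 2.24, 1.10, 0.985 and 1.52 CPM in Bap1LysM preOCs. Both genotypes were high in the first library set and low in the second. The genotype difference of Ptgs2 was -0.08 ± 0.43.

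Nos2, which makes nitric oxide from arginine, was at 0.374 to 4.06 CPM (median 0.748) in Bap1flox and 7.17, 1.98, 0.675, 0.436 and 0.733 CPM in Bap1LysM preOCs. Its difference was 0.79 ± 0.81 (adjusted p = 0.54, and 0.20 to 0.69 in the fits with a library left out) and turned to -0.42 without Bap1LysM preOC 1 and to -0.53 under voom with quality weights. With the library set as a term and Bap1LysM preOC 1 left out it was 0.20 ± 0.43. Il10, which did not reach the main filter, stood at 0.359 to 1.4 CPM and 2.07, 1.31, 0.895, 0.966 and 0.628 CPM. With genes kept at CPM above 0.1 the difference of Il10 was 0.41 ± 0.36 (adjusted p = 0.51), and 0.11 ± 0.34 without Bap1LysM preOC 1.

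Il6 was hardly read at all. The 17 libraries held 0 to 4 Il6 reads each, and 10 of them held none. A count of 0 allows up to 3 reads, or 0.0493 to 0.0661 CPM in the Bap1flox preOC libraries, so a genotype difference in Il6 was not detectable at this depth.

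In all, 6 members passed the main filter in preOCs, none rose and 1 fell, against 15.8% of all genes called, 11.8% with genes kept at CPM above 0.1 (where Il18 and Il1b were called) and 33.8% in replicates 4 to 6 alone (Il18 and Il1rn). Non-overlap of 6 and 5 libraries was seen in 9.4% of the genes tested. The median log2 fold change of the 6 tested members was 0.08, beside -0.01 for all genes tested.

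**Figure D3:**
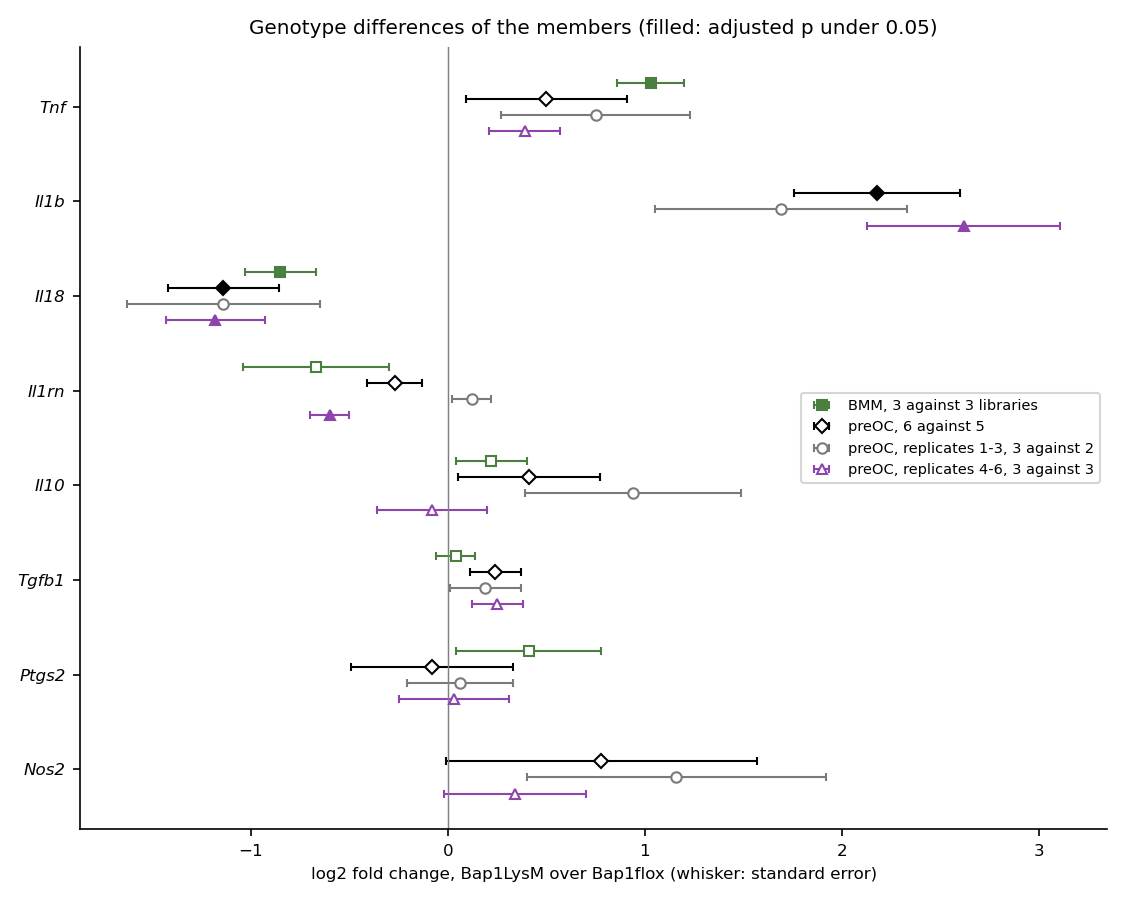
Log2 fold change of Bap1LysM over Bap1flox (horizontal axis, whiskers are standard errors) for 8 members in BMMs, in all preOC libraries and in each preOC library set, with preOC genes kept at CPM above 0.1; filled symbols have an adjusted p under 0.05. Il1b and Nos2 had too few reads in BMMs and Il6 everywhere; Il18 lies left of 0 in all 4 comparisons and Il1rn changes side between the sets.

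The comparison of BMMs with preOCs asked what RANKL does to the same genes, in the first library set only, where both states were sequenced. In Bap1flox, 3 members rose and 3 fell of 7 that passed the filter, in a comparison in which 64.6% of all genes were called. Il1rn rose from 5.83, 11.7 and 15.1 CPM to 119, 108 and 112 CPM (log2 fold change 3.37 ± 0.32, 10.3-fold, adjusted p = 0.00012). Every preOC library stood above every BMM library.

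Nos2 went from 0, 0 and 0.0802 CPM, 4 reads in all, to 4.06, 1.17 and 0.925 CPM (6.11 ± 1.08, adjusted p = 0.0021, and 5.15 to 9.73 with a library left out), a fold that depends on the prior count because the BMM libraries are near 0. Nos2 and Ptgs2 passed the filter only through the preOC libraries, where they are high. Ptgs2 rose from 1.37, 0.938 and 0.602 CPM to 2.84, 3.09 and 2.40 CPM (1.51 ± 0.31, adjusted p = 0.0044). These 3 genes ended above every BMM library of their genotype.

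Il10, a cytokine that dampens macrophage activation, fell from 3.01, 3.62 and 3.05 CPM to 1.4, 0.877 and 0.359 CPM (log2 fold change -1.88 ± 0.44, adjusted p = 0.0076). Il10 passed the filter only through the BMM libraries, where it is high. Il18 fell from 6.91, 6.65 and 5.98 CPM to 3.14, 2.42 and 2.76 CPM (-1.23 ± 0.15, adjusted p = 0.00041), and Tgfb1 from 698, 608 and 588 CPM to 473, 384 and 382 CPM (-0.61 ± 0.11, adjusted p = 0.0021). All 6 calls were kept in each of the 6 fits without a library. Tnf (0.11 ± 0.31) did not pass.

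In Bap1LysM, with 3 BMM and 2 preOC libraries, Il1rn rose from 6.84, 5.01 and 8.84 CPM to 119 and 127 CPM (4.17 ± 0.25, 18.0-fold, adjusted p = 0.0036), and Nos2 from 0.0490, 0.0443 and 0.161 CPM to 7.17 and 1.98 CPM (5.67 ± 0.78, adjusted p = 0.013). These 2 of 7 tested members were called against 18.4% of all genes. The filter was met for Nos2 in preOC libraries alone. Nos2 lost its call without Bap1LysM BMM 2 or 3, its log2 fold change ran from 4.5 to 6.53 with a library left out, and its fold went from 51.1 to 22.6 without Bap1LysM preOC 1 and to 18.9 without both libraries numbered 1. Il18 (-1.52 ± 0.52, adjusted p = 0.093) and Il10 (-1.14 ± 0.31, adjusted p = 0.051) missed the threshold by edgeR. Il18 passed it once libraries were blocked by number (adjusted p = 0.043). DESeq2, which called 4073 of 13627 genes, called Il18 (adjusted p = 0.023) and Il10 (adjusted p = 0.0054). Tgfb1 also missed the threshold by edgeR (-0.46 ± 0.19, adjusted p = 0.14). Ptgs2 went from 1.10, 1.68 and 1.08 CPM to 3.56 and 2.24 CPM. It was not called by edgeR (1.17 ± 0.36, adjusted p = 0.072) but by DESeq2 (adjusted p = 0.031). In a fit added after the data were seen, without the BMM and preOC libraries labelled Bap1LysM 1, which leaves 1 preOC library assumed to vary like the others, Il10, Il18, Tgfb1 and Tnf were called as falling as well, against 32.6% of all genes, Tnf by 1.0 on the log2 scale (adjusted p = 0.019) and Il18 by 2.47 (adjusted p = 0.0059).

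The test of whether RANKL acted differently in the genotypes called no member and 0.0% of 14106 genes, with 1751 genes at an unadjusted p under 0.05 and none of the members among them (DESeq2 called 112 genes, no member among them). With a library left out, 118 genes were called without Bap1LysM preOC 2, 2 without Bap1LysM preOC 1 and 0 in the other fits, and no member in any of them. Among members past the main filter the largest estimates were Il1rn (0.79 ± 0.43, adjusted p = 0.49) and Il10 (0.73 ± 0.57, adjusted p = 0.63), and Il1b stood at 1.82 ± 1.01 (adjusted p = 0.59) with genes kept at CPM above 0.1. For Il18 the estimate was -0.29 ± 0.50, and it was -1.39 ± 0.34 without Bap1LysM preOC 1 (unadjusted p = 0.0029, adjusted p = 0.19) and -1.24 ± 0.32 without both Bap1LysM libraries numbered 1 (unadjusted p = 0.0041, adjusted p = 0.19). For Tnf it went from -0.28 ± 0.54 to -1.12 ± 0.49 without Bap1LysM preOC 1 (unadjusted p = 0.047, adjusted p = 0.32). Without that library 1 Bap1LysM preOC library remains, which these fits assume to vary like the other groups.

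**Figure D4:**
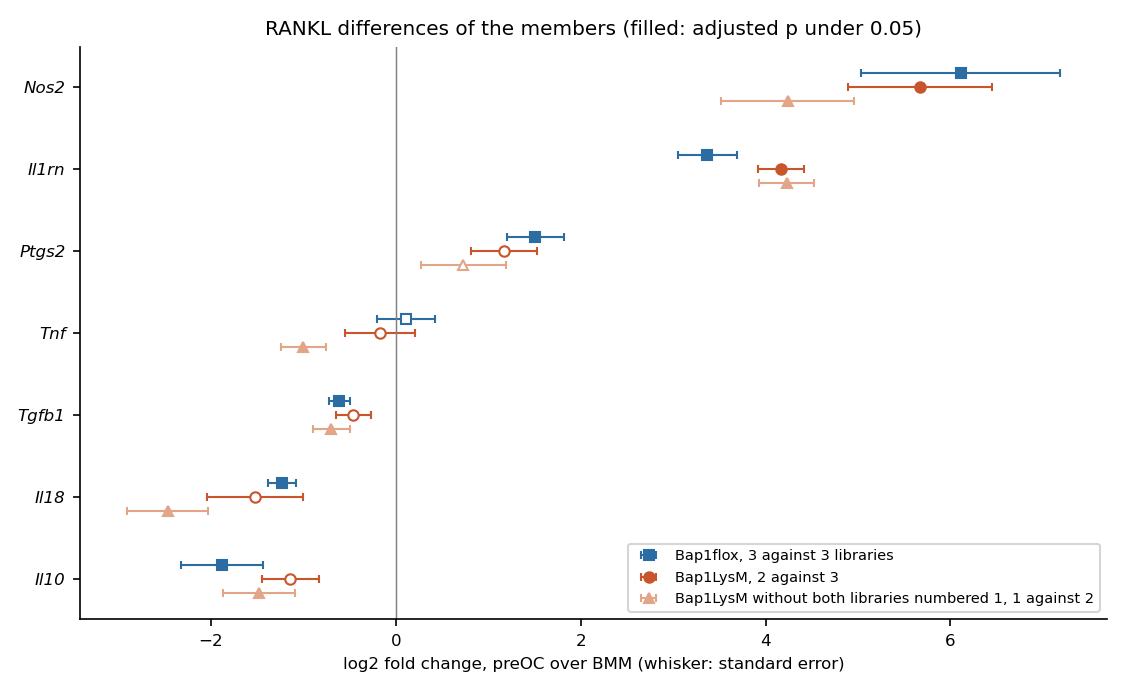
Log2 fold change of preOC over BMM (horizontal axis, whiskers are standard errors) for 7 members in Bap1flox, in Bap1LysM and in Bap1LysM without both libraries numbered 1; filled symbols have an adjusted p under 0.05. Nos2 and Il1rn lie far to the right in both genotypes (Il1rn 3.37 and 4.17), Il10 and Il18 to the left, and Tnf sits near 0 until the libraries numbered 1 are left out.

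Around the members, the genes that bind, cut, relay or degrade these mediators were read from 10 lists. Over these lists 14 of 100 tested genes rose and 6 fell with genotype in preOCs, in a comparison in which 15.8% of all genes were called, and the count of each list is to be read against that share. Counts of lists are by edgeR where no other tool is named. More of the same 100 genes were called in some other fits, 23 higher and 8 lower by DESeq2, 39 and 23 by voom with quality weights and 31 and 15 with libraries blocked by number. Between BMMs 104 genes of these lists were tested, and 0 were called higher and 7 lower (5.32% of all genes called). With libraries blocked by number 3 were higher and 24 lower in BMMs (16.2% of all genes called). In the IL-1 family list 11 of 14 genes were in the tables, 6 were tested in preOCs, 1 rose and 2 fell with genotype. The gene that rose was Il18bp, whose product is a secreted decoy that binds IL-18. It stood at 2.36 to 6.69 CPM (mean 4.86 ± 1.47, SD, n = 6) in Bap1flox and 9.52 to 33.6 CPM (17.7 ± 9.61, n = 5) in Bap1LysM preOCs, with no overlap (log2 fold change 1.86 ± 0.34, adjusted p = 0.0044). The estimate for Il18bp was 2.03 ± 0.49 in replicates 1 to 3 and 1.79 ± 0.34 in replicates 4 to 6, and all 11 fits without a library kept the call. Il1rl2, the IL-36 receptor (-1.24 ± 0.31, adjusted p = 0.019), and Sigirr, a brake on IL-1 receptor signalling (-0.79 ± 0.22, adjusted p = 0.031), fell with overlapping groups (calls kept in 10 and 5 of 11 fits without a library). Il1rl2 passed the filter only through the Bap1flox libraries (1.18 to 3.52 CPM), where it is high. Sigirr also fell in BMMs (-1.22 ± 0.22, adjusted p = 0.033). None of the 9 inflammasome genes was called in preOCs by edgeR, though 5 were at an unadjusted p under 0.05, and DESeq2 called 3 (2 higher, 1 lower) against 22.5% of all genes. Voom with quality weights called 6 against 54.9% and the fit blocked by number 6 against 32.8% (4 higher and 2 lower in each). With the library set as a term and Bap1LysM preOC 1 left out, 39.0% of all genes were called, no inflammasome gene was higher, and Gsdmd and Nlrc4 were lower. Nlrp3 was at 0.49 ± 0.25 (adjusted p = 0.20) and Casp1, whose protease cuts pro-IL-1 beta and pro-IL-18, at 0.48 ± 0.16 (adjusted p = 0.063). In BMMs, Nlrc4 alone of the 9 was called (-0.94 ± 0.16, adjusted p = 0.029).

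Of the TNF list, 2 of 8 tested genes rose in Bap1LysM preOCs and none fell by edgeR, while voom with quality weights called 4 higher and 2 lower and the blocked fit 4 higher and 1 lower. Tnfrsf1b (TNF receptor 2) went from 346 ± 61.0 CPM (298 to 460) to 616 ± 157 CPM (474 to 863), a log2 fold change of 0.83 ± 0.16 (adjusted p = 0.0064), while Tnfrsf1a (TNF receptor 1) stood at 162 and 165 CPM (0.02 ± 0.12). Ltb, the membrane anchor of lymphotoxin, rose from 1.07 ± 0.377 to 2.65 ± 1.03 CPM (1.30 ± 0.34, adjusted p = 0.023, kept in 8 of 11 fits without a library). No gene of this list was called between BMMs by edgeR (0 at an unadjusted p under 0.05) or DESeq2 (15.9% of all genes called), and voom with quality weights called 1 (13.6% of all genes called). In the IL-6 and IL-10 list, the ligand-binding receptor chains Il6ra (0.58 ± 0.16, adjusted p = 0.030) and Il10ra (0.70 ± 0.20, adjusted p = 0.037) rose with overlapping groups, each call kept in 3 of 11 fits without a library, and the other 7 of 9 did not pass by edgeR. All calls were of higher genes in the other fits too, 4 of 9 by DESeq2, 6 with libraries blocked by number and 7 by voom with quality weights. Without a filter edgeR called none of the 9. With the library set as a term and Bap1LysM preOC 1 left out, 4 were called and Il10ra was not among them.

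For TGF-beta, 1 of 16 tested genes rose and 1 fell in preOCs. Ltbp3, a protein that holds latent TGF-beta in the matrix, stood at 54.8 ± 14.7 CPM (38.1 to 73.9) in Bap1flox and 24.3 ± 8.40 CPM (15.6 to 34.9) in Bap1LysM preOCs, without overlap (-1.18 ± 0.26, adjusted p = 0.011). It was also lower in Bap1LysM BMMs (122 ± 13.9 against 46.4 ± 8.41 CPM, n = 3 each, -1.4 ± 0.15, adjusted p = 0.012). Stromal cells express it too, and the sum of 8 stromal markers was 184 to 1930 CPM in Bap1flox and 101 to 1210 CPM in Bap1LysM preOCs, 490 to 2755 CPM and 366 to 1291 CPM in BMMs; the part of stromal cells in Ltbp3 was not tested. Tgfbr2, the receptor that binds the ligand, rose by 0.34 ± 0.10 with overlapping groups (adjusted p = 0.043, kept in 3 of 11 fits without a library).

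Among prostanoid and leukotriene genes, 2 of 16 rose and 2 fell. Ltc4s, which conjugates glutathione to make leukotriene C4, rose from 5.61 ± 1.48 to 15.2 ± 4.69 CPM (1.42 ± 0.24, adjusted p = 0.0033). Tbxas1, thromboxane synthase, rose by 0.46 ± 0.14 with overlapping groups (adjusted p = 0.038, kept in 3 of 11 fits without a library). Ptger4, the EP4 receptor for prostaglandin E2, fell from 10.6 ± 1.27 to 6.79 ± 1.48 CPM (-0.65 ± 0.14, adjusted p = 0.011), and Lta4h fell by 0.22 ± 0.07 (adjusted p = 0.043), a call kept in 1 of 11 fits without a library. Ptgs1, the constitutive cyclo-oxygenase, did not differ past the threshold (33.6 and 31.2 CPM).

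In the arginine uptake and nitric oxide list, none of 7 tested genes was called by edgeR (0 at an unadjusted p under 0.05) or DESeq2, while voom with quality weights called 5 (1 higher, 4 lower, against 54.9% of all genes) and the fit blocked by number 1, Odc1, as lower. Among 10 genes of cytokine mRNA decay, Rc3h2 (Roquin-2, 0.37 ± 0.08, adjusted p = 0.011) and Zc3h12a (Regnase-1, 0.53 ± 0.14, adjusted p = 0.028, overlapping groups, kept in 8 of 11 fits without a library), whose products destroy cytokine mRNAs, rose and none fell by edgeR, while voom with quality weights called 4 higher and 1 lower. Of 7 tested markers of alternative activation, Chil3 (1.58 ± 0.32), Clec10a (2.01 ± 0.52) and Mgl2 (2.80 ± 0.61, past the filter only through Bap1LysM libraries) rose with overlapping groups, and in the list of other cytokines Il7 rose (1.30 ± 0.29, overlapping groups) and Tnfsf12, the gene of TWEAK, fell (-0.53 ± 0.17, overlapping groups, kept in 2 of 11 fits without a library). The Clec10a call was kept in 6 of 11 such fits and lost when libraries were blocked by number. In BMMs, edgeR called none of the 7 alternative activation markers higher and Mrc1, the mannose receptor, lower (-0.56 ± 0.12, adjusted p = 0.045), a call lost with genes kept at CPM above 0.1 and in a fit of all 17 libraries. Clec10a (-1.19 ± 0.48, adjusted p = 0.18) and Mgl2 (-1.05 ± 0.36, adjusted p = 0.13) did not pass there, with Bap1LysM libraries below all Bap1flox libraries. The blocked fit, which called 16.2% of all genes, called both lower, and DESeq2 called Clec10a lower. Stat6, which relays IL-4 signals, was at 0.35 ± 0.09 (adjusted p = 0.073) by edgeR and was called higher by DESeq2, by voom with quality weights and in the blocked fit. The list's median was -0.56, beside -0.01 for all genes tested. The neutrophil and monocyte marker sums given above moved with these genes as well, and their part was not tested. Genes named here with overlapping groups were chosen after their values were seen.

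**Figure D5:**
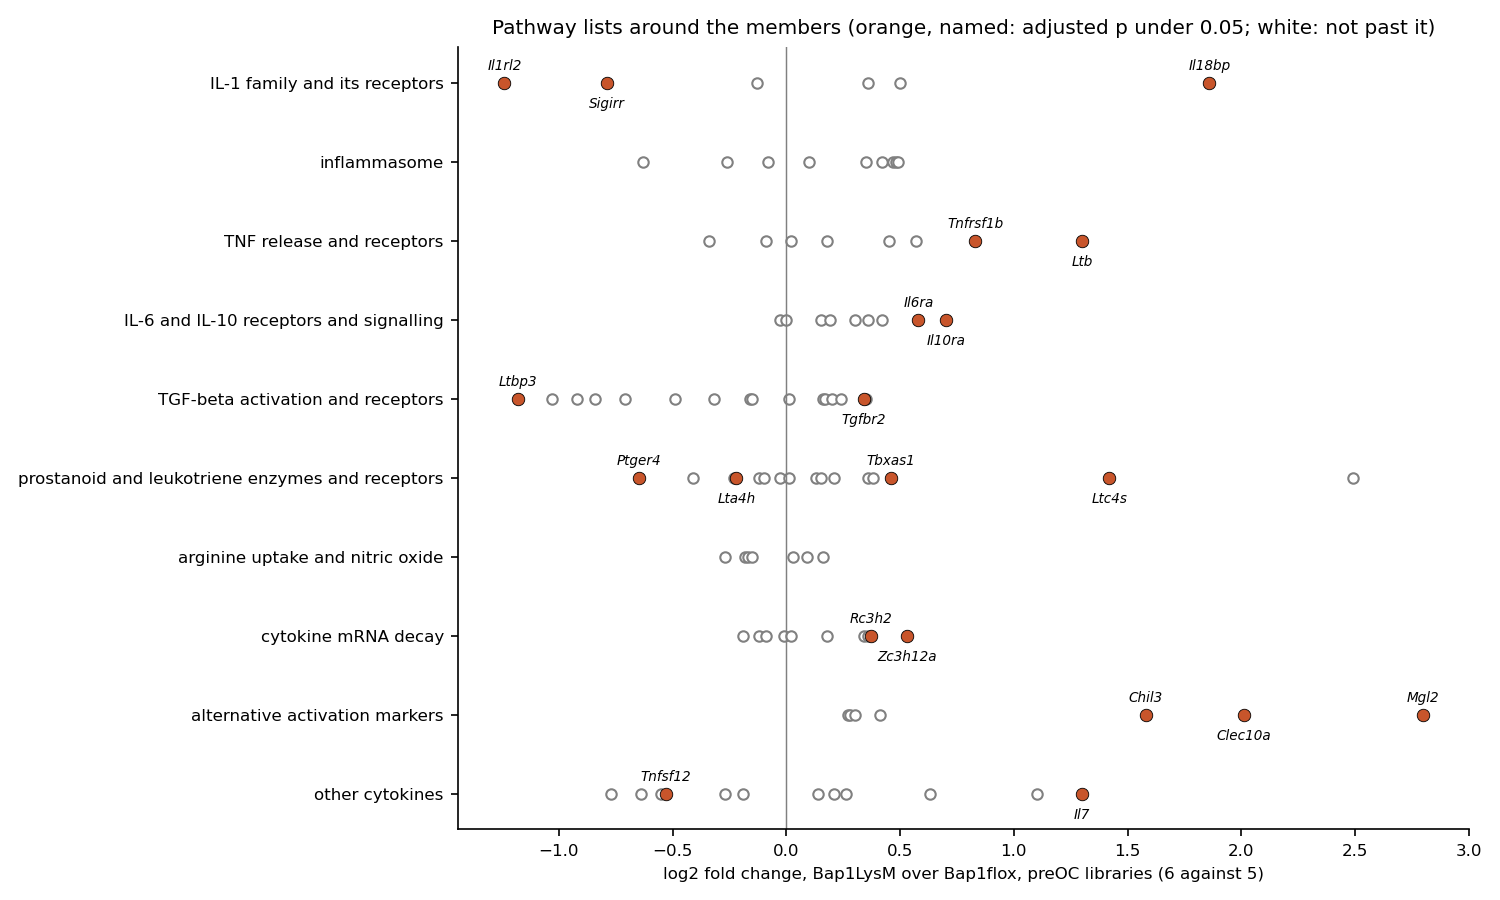
Log2 fold change of Bap1LysM over Bap1flox preOCs (horizontal axis) for the tested genes of 10 lists around the members (rows); each point is a gene, filled and named where its adjusted p is under 0.05. Il18bp (1.86) and Ltc4s (1.42) lie to the right and Ltbp3 (-1.18) and Il1rl2 (-1.24) to the left, and no gene of the inflammasome or arginine list is filled.

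The same lists were read for RANKL in Bap1flox, where 64.6% of all genes were called, and the examples were chosen after their values were seen. Around Ptgs2, the prostaglandin E synthases Ptges (2.24 to 7.98 CPM, log2 fold change 1.83 ± 0.24) and Ptges2 (12.2 to 34.1 CPM, 1.49 ± 0.09) rose and Hpgd, which inactivates prostaglandins, fell from 17.7 to 0.541 CPM (-5.03, adjusted p = 1.7e-05, past the filter only through the BMM libraries), among 4 genes that rose and 9 that fell of 16. Around Nos2, Ass1, which regenerates arginine from citrulline, rose from 13.3 to 104 CPM (2.96 ± 0.20), and 4 of 7 genes rose and 2 fell. All 9 IL-6 and IL-10 receptor and signalling genes changed, 7 down and 2 up, with Il10ra from 221 to 47.4 CPM (-2.22, adjusted p = 1.5e-05). Il18bp fell from 22.9 to 5.27 CPM (-2.12 ± 0.12); the Bap1flox preOC libraries of this comparison also enter the genotype comparison.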

How the data were processed

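The deposited tables give, per gene and library, counts of uniquely aligned, unambiguous reads made by the authors (STAR 2.5.1a, Subread featureCounts 1.4.6-p5, Ensembl genes on GRCm38, poly-A selected RNA), and the authors' CPM and RPKM, checked to equal count over library total and CPM over gene length. The strand setting of the counting is not given in the sources used here. Tests used the counts alone: edgeR 4.0.16 quasi-likelihood, TMM scaling, adjusted p by Benjamini-Hochberg over all genes tested at 0.05. Genes needed CPM above 1 in 4 of 11 preOC, 2 of 6 BMM, 2 of 6 Bap1flox RANKL, 1 of 5 Bap1LysM RANKL or 1 of 11 interaction libraries. 355 ribosomal RNA genes were left out. SE is the log2 fold change over the square root of F.

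1 member of the set and 1 gene of a list are not reported here. Members and lists were chosen with earlier results of these data known. Named pathway genes were up to 3 per list with the largest difference among those called in preOCs without overlap between genotypes; exceptions are marked. On simulated counts for preOCs (12763 genes, 200 changed 2-fold), edgeR recovered 71.5% with 6.5% false calls. For BMMs (12850 genes) it recovered 54.5% with 5.2%. False calls for preOCs and BMMs were 6.8% and 5.3% with voom and 22.2% and 28.7% with DESeq2. Calls made by DESeq2 and not by edgeR are to be read with that share.

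Same-numbered libraries deviated together in BMMs (correlation over genes 0.54, 0.36 and 0.41), Bap1flox RANKL (0.37, 0.24 and 0.31) and preOCs (0.61, 0.73, 0.39, 0.67 and 0.48; after removing the set means 0.45, 0.38, 0.01, -0.15 and 0.06), so fits with a replicate block were run; the labels give no shared litter or day. The preOC libraries are described as biologically independent samples; for BMMs p-values measure only the spread between these samples, which may be technical. Alternatives were DESeq2 1.42.0, voomWithQualityWeights (limma 3.58.1), RLE and upper-quartile factors, other filters, library sets and left-out libraries. Floors cover counting error only.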

Additional observations from a re-analysis of the deposited data

Results flagged for a closer look

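Dixon's test was applied to each member in the 6 Bap1flox and the 5 Bap1LysM preOC libraries, 18 tests, of which chance flags about 1 in 20. It marked 6 values. The preOC libraries numbered 1 stood apart in both genotypes: Tnf was 16.9 CPM in Bap1flox preOC 1 (the next 8.80) and 27.6 CPM in Bap1LysM preOC 1 (the next 10.4), and Nos2 was 4.06 CPM (the next 1.17) and 7.17 CPM (the next 1.98). The osteoclast marker sum was lowest in these 2 libraries (6600 and 6093 CPM), and its part in the Tnf and Nos2 levels was not tested. Il6 was 0.0799 CPM, 4 reads, in Bap1flox preOC 1 and 0 in the other Bap1flox preOCs. Il1rn was 138 CPM in Bap1flox preOC 6, the next 119.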

How the results depend on the processing

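Of the log2 fold changes of members, named pathway genes, Bap1 and Lyz2, 367 of 415 kept direction and side of the threshold under another setting and 338 of 388 with 1 library left out. RANKL in Bap1flox gave 6 called members and the genotype by RANKL test 0 in every setting run. Genotype in preOCs gave 3 members with voom (Il18, Il1rn and Tgfb1), 2 without a filter and at CPM above 0.1 (Il18 and Il1b), 2 with the replicate block (Il18 and Tnf), 0 in replicates 1 to 3, 2 in replicates 4 to 6, and 0 to 1 with a library left out, against 1. Genotype in BMMs gave 1 (Tnf) at CPM above 0.1 and in a fit of all 17 libraries, and 0 to 1 with a library left out, against 2. RANKL in Bap1LysM gave 5 with DESeq2, 3 with upper-quartile factors (Il10 added), 3 with the replicate block (Il18 added), 4 without a filter, 6 without both Bap1LysM libraries numbered 1 (chosen after seeing the data) and 1 to 6 with a library left out (6 without Bap1LysM preOC 1, 1 without Bap1LysM BMM 2 or 3), against 2. Besides Tnf in preOCs and Il18 for RANKL in Bap1LysM (log2 fold change -1.74, adjusted p = 0.043), the replicate block changed no member's call. Some estimates changed sign. In preOCs these were Il1rn (0.12, replicates 1 to 3), Ptgs2 (0.00 with the block, 0.05 with the set as a term and in replicates 4 to 6, 0.06 in replicates 1 to 3 and in the 17-library fit), Nos2 (-0.53, voom) and Il10 (-0.08, replicates 4 to 6). For RANKL in Bap1flox, Tnf was -0.16 with voom. In the genotype by RANKL test they were Tgfb1 (-0.09) without both libraries numbered 1 and Nos2 (0.62, voom). With a library left out, the ranges that crossed 0 were, in preOCs, Tnf (-0.05 to 0.83), Ptgs2 (-0.45 to 0.11) and Nos2 (-0.42 to 1.63), in BMMs Tgfb1 (0.00 to 0.12), and for RANKL Tnf (-0.31 to 0.32 in Bap1flox, -1.01 to 0.34 in Bap1LysM). For the genotype by RANKL test they were Tnf (-1.12 to 0.24), Il18 (-1.39 to 0.31), Tgfb1 (-0.10 to 0.36) and Nos2 (-3.95 to 0.53). The cause was not tested.

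Over all genes, preOC calls were 2043, 4236 with the block, 4349 with the set as a term, 7099 with voom, 0 in replicates 1 to 3 and 1071 (without Bap1LysM preOC 5) to 3085 (without Bap1LysM preOC 1) with a library left out. BMM calls were 693, 2107 with the block, 2065 with DESeq2 and, with a library left out, 298, 7 and 4 without Bap1flox BMM 1, 2 and 3 and 369, 84 and 756 without Bap1LysM BMM 1, 2 and 3. Calls over the 10 pathway lists in preOCs numbered 14 higher and 6 lower, 31 and 15 with the block, and 0 in replicates 1 to 3. Read depth limits Il6 everywhere and Il1b and Nos2 in BMMs.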
